A study of Homo sapiens with 6 samples.

Results

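The family of miR-148a, miR-148b and miR-152, known for targeting DNMT1, was taken as 6 mature arms, hsa-miR-148a-3p, hsa-miR-148a-5p, hsa-miR-148b-3p, hsa-miR-148b-5p, hsa-miR-152-3p and hsa-miR-152-5p. They were matched by exact name in a table of 1155 mature miRNAs, where all 6 had a row and none was absent. The prefix hsa, for human, is left out from here on. Small RNA sequencing had been carried out on U2OS, an established human osteosarcoma cell line, in 6 libraries. The 3 libraries labelled LINC00673 were read, from the design text of the series, as cells that stably carry a short hairpin RNA against the long intergenic non-coding RNA LINC00673. The 3 libraries labelled NC are the cells they were set against, which the design text calls wild type and whose sample names carry the same prefix, Lv, as those of the LINC00673 cells. The labels do not say whether NC cells carry a control construct, how many clones or shRNAs were used, or whether replicates are separate cultures. The p-values given here therefore reflect only how far these libraries spread, which may be technical. LINC00673 itself is not a row of the table, so its depletion could not be checked here.

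Members of this family share 1 seed, the stretch near the 5′ end of a miRNA that pairs with target transcripts. They are best known for binding the transcript of DNMT1, the enzyme that copies DNA methylation onto the new strand after replication, and miR-148a also binds transcripts of the LDL receptor and of HLA-C. The 3p arm is the one usually loaded into Argonaute, while the 5p arm is the opposite strand of the precursor and is mostly degraded. Loss of miR-148a and miR-152, often with methylation of their own genes, has been described in several carcinomas.

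RefSeq (GRCh38.p14) held mature sequences for 5 of the 6 members. The 3p arms are shown because the family is defined by them, 5′ to 3′, with the seed (bases 2 to 8) in capitals.
miR-148a-3p: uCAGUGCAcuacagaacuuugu
miR-148b-3p: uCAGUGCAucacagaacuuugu
miR-152-3p: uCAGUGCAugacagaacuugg
All 3 have the seed CAGUGCA, and among 2370 RefSeq mature names no other carried it at bases 2 to 8. Counted from 1 at the 5′ end, miR-148b-3p differs from miR-148a-3p by C9U and U10C, an identity of 90.9% over 22 bases. The miR-152-3p arm, 1 base shorter, differs from miR-148a-3p by C9U, U10G and U20G (85.7% over 21 bases) and from miR-148b-3p by C10G and U20G. The sources used here do not say how the authors assigned reads that match more than 1 of these arms, so the split of reads among paralogs carries that uncertainty.

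The 5p arms of MIR148B and MIR152 differ from each other within bases 2 to 8, and they are shown for that contrast with the 3p arms, with these bases in capitals.
miR-148b-5p: aAGUUCUGuuauacacucaggc
miR-152-5p: aGGUUCUGugauacacuccgacu

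Each member comes from 1 precursor gene, shown here because the position of the gene bears on what it could share with other transcripts, with the 3p arm in capitals.
MIR148A: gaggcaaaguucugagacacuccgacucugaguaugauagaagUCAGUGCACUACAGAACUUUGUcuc
MIR148B: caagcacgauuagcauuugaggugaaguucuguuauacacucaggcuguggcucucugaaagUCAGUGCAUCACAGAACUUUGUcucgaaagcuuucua
MIR152: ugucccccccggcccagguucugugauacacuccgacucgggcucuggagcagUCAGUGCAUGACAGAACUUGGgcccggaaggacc
MIR148A lies on the minus strand of chromosome 7 from 25949919 to 25949986, outside annotated genes, with a lincRNA, AC010719.1, 516 bp downstream on the same strand (GENCODE 29, GRCh38). MIR148B lies on the plus strand of chromosome 12 from 54337216 to 54337314, in intron 1 of COPZ1, which encodes a coatomer subunit, and in the intron of the overlapping non-coding transcript AC078778.2. MIR152 lies on the minus strand of chromosome 17 from 48037161 to 48037247, in intron 1 of COPZ2, the paralog of COPZ1. LINC00673 is on the same chromosome, from 72403322 to 72592804, 24.4 Mb away from MIR152.

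The site through which the family is known to act on DNMT1 was looked up in the annotated transcripts, on the transcript strand. The 3′ UTR of DNMT1-201 is 321 bases long and holds the seed match TGCACTG once, at base 48, followed by an A. The site, with the seed match in capitals, is at chr19:10133611-10133633 on the minus strand (GRCh38).
DNMT1 site: aggaatccccaacaTGCACTGat
The same 7 letters occurred in the first 321 bases of 3.48% of 14502 protein-coding 3′ UTRs of at least that length, and in the last 321 bases of 2.93%. They were not in the 3′ UTR of the transcript searched for DNMT3A or for DNMT3B, the enzymes that place new methylation marks. Coding sequences and other transcripts of these genes were not searched. The DNMT1 transcript was not measured in these libraries.

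The listed miRNAs held 265883 to 543144 reads per LINC00673 library and 211242 to 331387 reads per NC library. Values are read counts scaled to a common library total (CPM), as deposited, and the reads behind each were recovered from them. The listed miRNAs made up 69.9% to 72.0% of that total in LINC00673 and 68.6% to 71.5% in NC libraries. Adapter ligation favours some sequences, so levels of different arms do not give their molar ratio, whereas 1 arm can be compared between libraries. In bulk RNA, fewer cells of a kind and less RNA per cell cannot be told apart. All 8 mesenchymal miRNAs checked against the label had a row, with a sum of 177866 to 201890 CPM in LINC00673 and 138196 to 198385 CPM in NC libraries, mostly miR-21-5p, while miR-145-5p and miR-214-3p stayed at or under 5.26 and 9.63 CPM. Of 17 miRNAs of blood, endothelial, liver, muscle, epithelial and neural cells, 12 had a row, with a sum of 5262 to 6234 CPM in LINC00673 and 5731 to 7651 CPM in NC libraries, mostly miR-126-3p and miR-9-5p. Of the blood markers, miR-223-3p, miR-451a and miR-144-3p had no row used here, whereas miR-142-3p was in every library, at 155 to 183 CPM in LINC00673 and 109.7 to 203 CPM in NC, and miR-142-5p was at 13.1 to 21.6 CPM in LINC00673 and 6.42 to 28.97 CPM in NC. Epithelial miR-200c-3p stayed at or under 13.53 CPM, and 6 of the 12 were at 0 in at least 1 library. The part of other cell types in the results was not tested.

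The 3 arms with the common seed were abundant, and in none did the difference between groups pass a test against the spread of the replicates. The summed level of the 6 members was 12674, 14307 and 13993 CPM in LINC00673 replicates 1, 2 and 3, and 13235, 13556 and 14680 CPM in NC replicates 1, 2 and 3. The ranges overlapped, with the highest sum in NC replicate 3 and the lowest in LINC00673 replicate 1. The LINC00673 mean was 13658 ± 866 CPM, against 13824 ± 759 CPM in NC (SD, n = 3 each), or -0.02 on the log2 scale (SE 0.07; two-sided exact permutation p = 0.9, where 3 against 3 libraries cannot go below 0.1). The sign of so small a difference depended on the scaling, and the log2 difference was 0.09 with TMM factors. The family took 1.81% to 1.99% of the listed CPM in LINC00673 and 1.93% to 2.05% in NC libraries.

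The level of miR-148a-3p, the highest of the family, was 5832, 6356 and 6382 CPM in the LINC00673 libraries (replicates 1 to 3), and 6408, 6823 and 7230 CPM in the NC libraries. All LINC00673 libraries lay below all NC libraries, but the highest LINC00673 value and the lowest NC value lay within each other's 95% counting interval (6204 to 6563 CPM and 6184 to 6637 CPM, exact Poisson). The LINC00673 mean was 6190 ± 310 CPM, against 6820 ± 411 CPM in NC (SD, n = 3 each), or -0.14 on the log2 scale (SE 0.15), which did not pass limma (adjusted p = 0.83). Among the 6 members, 1 was separated between groups in this way, with LINC00673 below, where 15.4% of the 810 miRNAs tested were separated in either direction (7.65% with LINC00673 below and 7.78% with it above).

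Its paralog miR-148b-3p was at 5083, 5722 and 5527 CPM in the LINC00673 libraries and at 4570, 4614 and 5637 CPM in the NC libraries. NC replicates 1 and 2 lay below every LINC00673 library, while NC replicate 3 lay inside the LINC00673 range. The LINC00673 mean was 5444 ± 328 CPM, against 4940 ± 603 CPM in NC (SD, n = 3 each), or 0.15 on the log2 scale (SE 0.16), and limma gave an adjusted p of 0.83.

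The third arm with the seed, miR-152-3p, stood at 1672, 2174 and 2018 CPM in the LINC00673 libraries and at 2191, 2016 and 1746 CPM in the NC libraries. The groups overlapped, and the lowest library of all was LINC00673 replicate 1. The LINC00673 mean was 1955 ± 257 CPM, against 1984 ± 224 CPM in NC (SD, n = 3 each), or -0.02 on the log2 scale (SE 0.17). Limma gave an adjusted p of 0.983, and the sign of this difference turned, to 0.08, with TMM factors and in edgeR.

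The 3 arms held steady places in the order of all miRNAs. In the LINC00673 libraries miR-148a-3p ranked 19 to 20, miR-148b-3p 22 to 23 and miR-152-3p 42 to 44 by CPM, against 17 to 19, 20 to 24 and 39 to 45 in the NC libraries. The order of the 3 paralogs was the same in each of the 6 libraries, with miR-148a-3p above miR-148b-3p above miR-152-3p.

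Counting error was small beside the spread between libraries for these arms. For miR-148a-3p the coefficient of variation between replicates was 5.01% in LINC00673 and 6.03% in NC libraries, where counting alone gives 1.68% and 2.07%. For miR-148b-3p it was 6.02% in LINC00673 and 12.2% in NC libraries (1.78% and 2.43% from counting), and for miR-152-3p it was 13.1% and 11.3% in the same order (2.95% and 3.78% from counting). The 95% intervals of the log2 difference ran from -0.45 to 0.17 for miR-148a-3p, from -0.18 to 0.47 for miR-148b-3p and from -0.38 to 0.33 for miR-152-3p (limma, n = 3 each), so a change of 1 log2 unit, a doubling or halving, lay outside all 3 intervals.

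**Figure D1:**
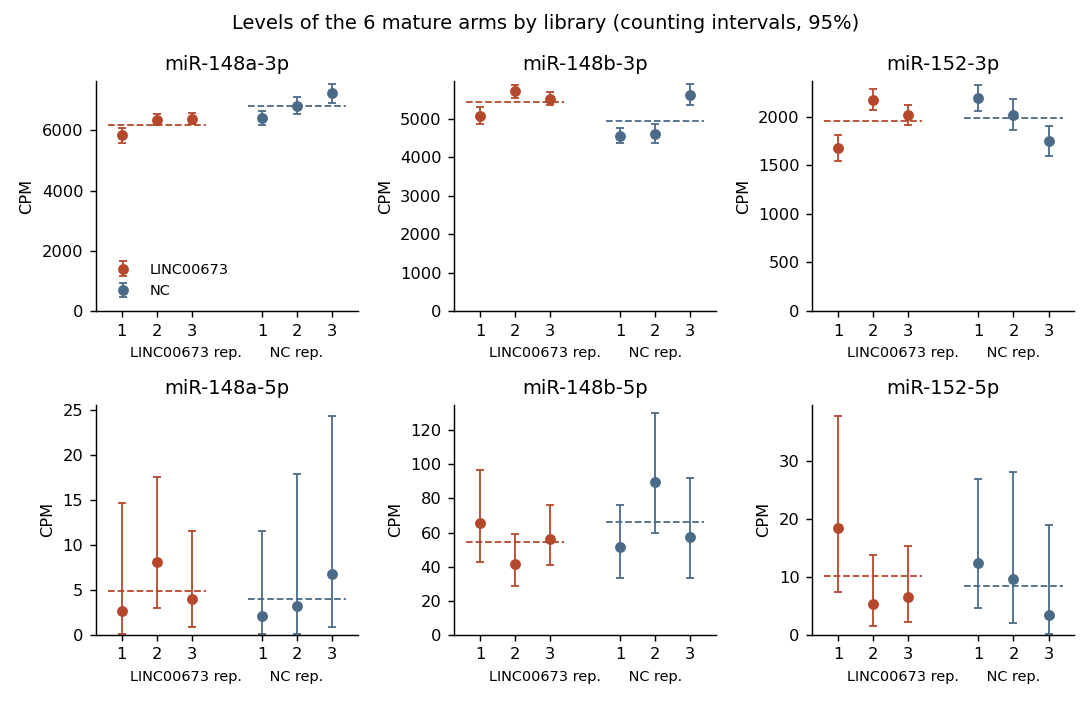
Level of each of the 6 mature arms in CPM on linear axes from 0, in LINC00673 replicates 1 to 3 (left in each panel) and NC replicates 1 to 3 (right), with 95% exact Poisson intervals as bars and group means as dashed lines. The 3p arms in the upper row have narrow counting intervals, and LINC00673 lies below NC in every library only for miR-148a-3p; the 5p arms in the lower row have wide intervals, and their groups overlap.

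The 5p arms were rare. The level of miR-148b-5p, the most abundant of them, was 65.7, 41.8 and 56.4 CPM in the LINC00673 libraries and 51.7, 89.9 and 57.5 CPM in the NC libraries, from 25, 31 and 43 reads and from 25, 28 and 17 reads. The highest value was in NC replicate 2, the groups overlapped, and the mean was 54.6 ± 12.1 CPM in the LINC00673 group, against 66.4 ± 20.6 CPM in NC (SD, n = 3 each). This was -0.26 on the log2 scale (SE 0.33; limma adjusted p = 0.877).

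For miR-152-5p, 7, 4 and 5 reads were counted in the LINC00673 libraries and 6, 3 and 1 reads in the NC libraries. These gave 18.4, 5.39 and 6.56 CPM in LINC00673 and 12.4, 9.63 and 3.38 CPM in NC libraries, and the groups overlapped. The difference was 0.20 on the log2 scale (SE 0.68; limma adjusted p = 0.957).

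The opposite strand of the most abundant member, miR-148a-5p, was the rarest, with 1, 6 and 3 reads in the LINC00673 libraries and 1, 1 and 2 reads in the NC libraries. The LINC00673 values were 2.63, 8.08 and 3.93 CPM and the NC values 2.07, 3.21 and 6.77 CPM. All NC libraries and LINC00673 replicate 1 lay under a floor of 3 reads, which was 3.93 to 7.89 CPM in LINC00673 and 6.21 to 10.1 CPM in NC libraries. At this depth the difference in this arm was poorly bounded, with a 95% interval of the log2 difference from -1.42 to 1.88 (limma adjusted p = 0.957). A doubling or a halving lay inside this interval.

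In the fit over all 810 miRNAs averaging at least 1 CPM, 0 of the 6 members passed limma at an adjusted p of 0.05, where 0.247% of all miRNAs did. Unadjusted, 0 of the 6 had a limma p under 0.05, against 11.1% of all, and 0 of the 6 did in edgeR or DESeq2, against 12.8% and 6.54%. Applied to recovered reads, edgeR's quasi-likelihood test also passed 0 of the 6 (2.72% of all, 1.85% as higher and 0.864% as lower), with adjusted p of 0.977, 0.625 and 0.926 for miR-148a-3p, miR-148b-3p and miR-152-3p. DESeq2 gave an adjusted p for 4 members and passed 0 (7.04% of the 213 miRNAs with an adjusted p, 2.35% as higher and 4.69% as lower), with 0.574, 0.661 and 0.953 for the same arms. In limma, 3 members had a log2 difference above 0 and 3 below, with a median of 0.06, which was also the median over all 810 miRNAs.

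**Figure D2:**
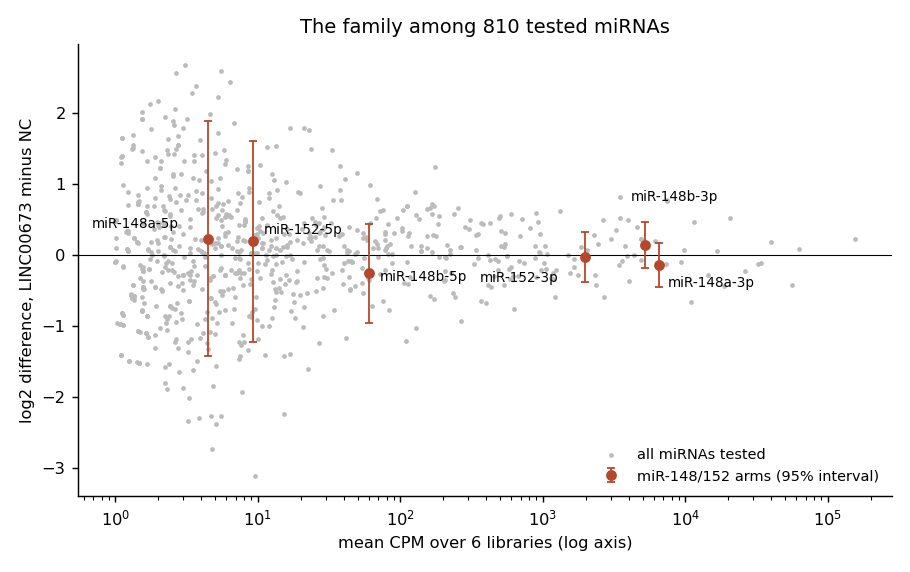
Log2 difference, LINC00673 minus NC, against the mean CPM over 6 libraries (log axis) for the 810 miRNAs tested (grey) and the 6 members (red, with 95% limma intervals). The 3p arms sit at the abundant end between -0.14 and 0.15, and the intervals of all members include 0.

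Although neither level passed a test, miR-148a-3p and miR-148b-3p differed in opposite directions, and their ratio within a library was compared because it does not depend on scaling. The ratio of miR-148a-3p to miR-148b-3p was 1.15, 1.11 and 1.15 in the LINC00673 libraries and 1.40, 1.48 and 1.28 in the NC libraries. Each LINC00673 ratio lay below each NC ratio, with NC replicate 3 the nearest to the LINC00673 libraries. The mean log2 ratio was 0.19 ± 0.03 in LINC00673 and 0.47 ± 0.10 in NC libraries (SD, n = 3 each), a difference of -0.29, where counting error on 1 library's log2 ratio was 0.03 to 0.05 (standard error). The exact two-sided permutation p was 0.1, the smallest these libraries allow, and 0.3 after adjustment over the 3 paralog ratios.

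Ratios separated in this way were common. Over the 1770 possible ratios among 60 miRNAs averaging 1000 CPM or more, 28.7% did not overlap between groups, and 55.9% differed by more than the ratio of miR-148a-3p to miR-148b-3p did. The other ratios of the family overlapped. The log2 ratio of miR-148a-3p to miR-152-3p was 1.67 ± 0.13 in LINC00673, against 1.79 ± 0.25 in NC (exact permutation p = 0.6, adjusted p = 0.6), and that of miR-148b-3p to miR-152-3p was 1.48 ± 0.11 in LINC00673, against 1.32 ± 0.33 in NC (exact permutation p = 0.5, adjusted p = 0.6; SD, n = 3 each). The difference in this last ratio was 0.17, and with 1 library left out it ran from 0.04 without NC replicate 1 to 0.36 without NC replicate 3.

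As shares of the family's CPM, miR-148a-3p made up 46.0%, 44.4% and 45.6% in the LINC00673 libraries and 48.4%, 50.3% and 49.2% in the NC libraries. The share of miR-148b-3p was 40.1%, 40.0% and 39.5% in the LINC00673 libraries and 34.5%, 34.0% and 38.4% in the NC libraries. Neither share overlapped between groups, and the differences were -3.98 and 4.21 percentage points (exact permutation p = 0.1 each, adjusted over the 6 members p = 0.3). As shares of the same total move against each other, these differences restate the ratio of miR-148a-3p to miR-148b-3p and are not separate results. No background over other miRNAs was computed for shares, while 28.7% of ratios between abundant miRNAs did not overlap. The share of miR-152-3p was 13.2% to 15.2% in LINC00673 and 11.9% to 16.6% in NC libraries, and the 5p arms together took under 1% of the family in each library.

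**Figure D3:**
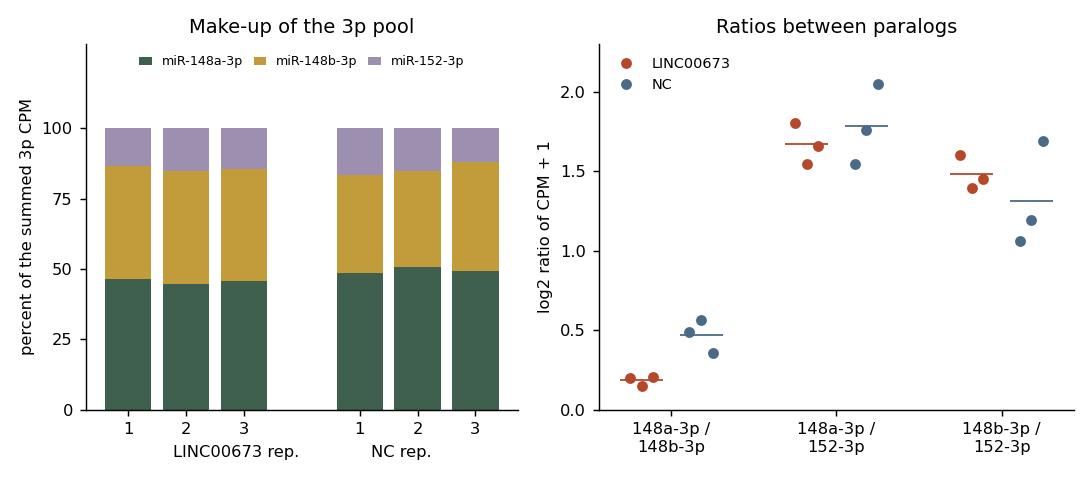
Left, each 3p arm as a percent of the summed 3p CPM in each library (LINC00673 replicates left, NC replicates right); right, log2 ratios of CPM + 1 between paralogs, 1 point per library with lines at group means. The ratio of miR-148a-3p to miR-148b-3p is the 1 of the 3 whose groups do not overlap, at 0.15 to 0.21 in LINC00673 and 0.36 to 0.56 in NC libraries.

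The balance of arms at each precursor was described by the share of a locus' reads on the 5p arm. Because adapter ligation favours some sequences, this share of reads does not measure strand choice itself. For MIR148B it was 1.28%, 0.724% and 1.01% in the LINC00673 libraries and 1.12%, 1.91% and 1.01% in the NC libraries, and NC replicate 2 stood highest. Over pooled reads the 5p share of MIR148B was 0.943% in LINC00673 (95% Wilson interval 0.775% to 1.15%) and 1.30% in NC libraries (1.03% to 1.64%), intervals that cover counting error only. For MIR152 it was 0.42% in LINC00673 and 0.452% in NC libraries, and for MIR148A 0.0847% in LINC00673 and 0.0543% in NC libraries, from 10 and 4 reads on the 5p arm. In both groups MIR148A had the lowest pooled 5p share and MIR148B the highest, an order of reads and not of molecules.

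Between groups, the log2 ratio of 3p to 5p differed by 0.40 for MIR148B (6.64 ± 0.41 in LINC00673 and 6.23 ± 0.50 in NC libraries), by -0.37 for MIR148A (10.2 ± 0.62 and 10.5 ± 0.60 in the same order) and by -0.22 for MIR152 (7.63 ± 1.06 and 7.85 ± 0.69; SD, n = 3 each). Libraries of both groups overlapped at each locus, and the exact permutation p was 0.5, 0.5 and 0.8, or 0.75, 0.75 and 0.8 after adjustment over the 3 loci. Single libraries moved these values: the MIR148B difference was 0.12 without NC replicate 2 and 0.19 without LINC00673 replicate 2, and over all 6 libraries left out in turn it ran from 0.12 to 0.60. The MIR148A difference ran from -0.70 without NC replicate 3 to -0.02 without LINC00673 replicate 2, and the MIR152 difference from -0.61 to 0.38.

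Other miRNAs reported to target DNA methyltransferases were examined beside the family. These were miR-29a-3p, miR-29b-3p, miR-29c-3p, miR-143-3p and miR-101-3p, whose reported targets are DNMT3A or DNMT3B, and miR-185-5p, miR-342-3p and miR-140-5p, whose reported target is DNMT1. Of these 8, 0 passed limma in either direction, edgeR passed 1 and DESeq2 2 as lower, where limma called 0.247% of all miRNAs, edgeR 0.864% as lower and DESeq2 4.69% as lower. The log2 difference was above 0 for 5 and below 0 for 3, with a median of 0.06 as over all miRNAs tested. The most abundant, miR-29a-3p, was at 64452 ± 2820 CPM in the LINC00673 group, against 60784 ± 3919 CPM in NC (SD, n = 3 each).

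Its relative miR-29b-3p was at 9640, 7571 and 8215 CPM in the LINC00673 libraries and at 12764, 15100 and 12112 CPM in the NC libraries, with all LINC00673 libraries lower. The log2 difference of miR-29b-3p was -0.65 (adjusted p = 0.0571 in limma, 0.0412 in edgeR and 0.0143 in DESeq2). With 1 library left out, edgeR kept the call only without NC replicate 3 (adjusted p = 0.0042) and lost it otherwise (0.0567 to 0.663), and DESeq2 kept it without LINC00673 replicate 1 or NC replicate 3 and lost it otherwise (0.152 to 0.999). The log2 difference itself stayed below 0 in these fits, at -0.69 to -0.45 in edgeR and -0.81 to -0.55 in DESeq2. For miR-101-3p, at 2131 ± 209 CPM in the LINC00673 group, against 3252 ± 612 CPM in NC (SD, n = 3 each), DESeq2 alone passed (adjusted p = 0.0279, limma adjusted p = 0.156). DESeq2 kept this call only without NC replicate 3 (adjusted p = 0.000386), and it was not past the threshold without any other library (0.324 to 0.999), while its log2 difference ran from -0.76 to -0.54. The DNMT1-directed miRNAs of the list did not pass any of the 3 tools, with log2 differences of 0.15 for miR-185-5p, 0.30 for miR-342-3p and -0.41 for miR-140-5p. These 3 are named outside the naming rule, after their values were seen. Of them, miR-140-5p was the third of the 8 whose groups did not overlap, lower in all LINC00673 libraries, after miR-29b-3p and miR-101-3p, where 7.65% of all miRNAs were separated with LINC00673 below.

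The letters of the family seed also open the miR-130b, miR-301a and miR-301b arms, but 1 base nearer the 5′ end, so that their own bases 2 to 8 read AGUGCAA. RefSeq held no mature sequence for their relative miR-130a-3p, so that arm could not be checked for this run here. The miR-454-3p sequence does not hold it. The miR-301a, miR-301b and miR-130b arms are shown with the run CAGUGCA in capitals.
miR-301a-3p: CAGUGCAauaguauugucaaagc
miR-301b-3p: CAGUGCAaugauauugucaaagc
miR-130b-3p: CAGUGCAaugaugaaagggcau
Of this group with miR-130a-3p and miR-454-3p, 4 of 5 had a log2 difference below 0, as had 379 of all 810 miRNAs, and the median was -0.29, against 0.06 over all. None passed limma, edgeR passed miR-301b-3p and DESeq2 passed miR-301a-3p and miR-301b-3p, all as lower, where edgeR called 0.864% and DESeq2 4.69% of all miRNAs as lower. The level of miR-301b-3p was 78.9, 60.6 and 57.7 CPM in the LINC00673 libraries and 155, 132 and 169 CPM in the NC libraries, with every LINC00673 library below every NC library (log2 difference -1.20, adjusted p = 0.0571 in limma, 0.0108 in edgeR and 0.00594 in DESeq2). The edgeR call for miR-301b-3p was lost without any 1 of the LINC00673 libraries or without NC replicate 1 (adjusted p = 0.307, 0.222, 0.663 and 0.0567), with log2 differences of -1.30, -1.06, -1.17 and -1.17 in those fits, against -1.14 with all libraries. DESeq2 lost miR-301a-3p and miR-301b-3p when any 1 of LINC00673 replicates 2 and 3 and NC replicates 1 and 2 was left out (adjusted p = 0.12 to 0.999), while over all libraries left out in turn the log2 differences ran from -1 to -0.60 for miR-301a-3p and from -1.42 to -1.14 for miR-301b-3p. The level of miR-301a-3p was 573, 404 and 426 CPM in the LINC00673 libraries and 943, 684 and 751 CPM in the NC libraries, with a log2 difference of -0.76 (limma adjusted p = 0.0943, DESeq2 adjusted p = 0.0341). Neither of the more abundant members of the group was separated between groups. The mean of miR-130a-3p was 1571 ± 81.9 CPM in LINC00673, against 1945 ± 408 CPM in NC, and miR-454-3p was at 3932 ± 845 CPM in the LINC00673 group, against 3587 ± 818 CPM in NC (SD, n = 3 each).

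**Figure D4:**
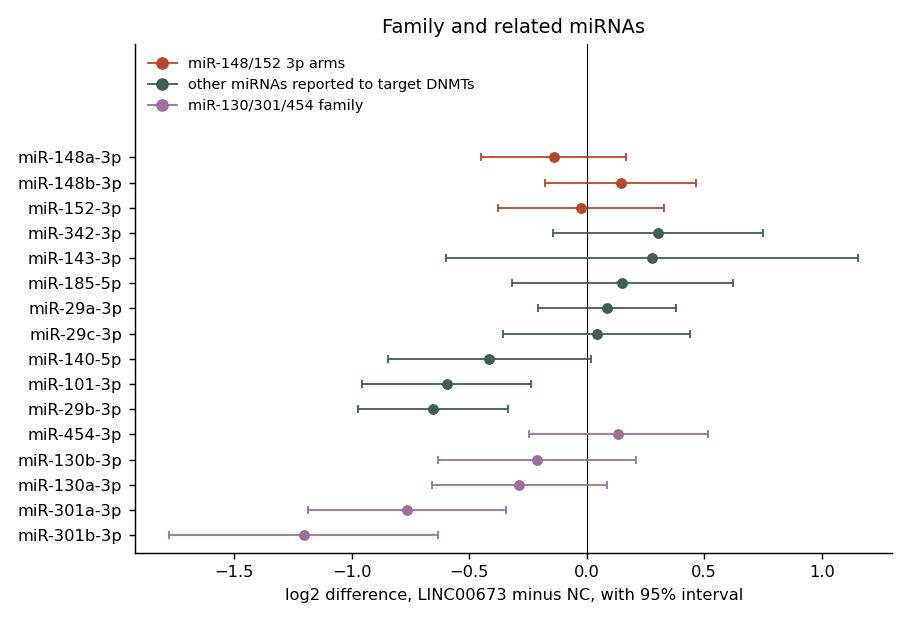
Log2 difference, LINC00673 minus NC, with 95% limma intervals, for the 3p arms of the family (red), 8 other miRNAs reported to target DNA methyltransferases (green) and the miR-130, miR-301 and miR-454 arms (purple). The 3 red intervals include 0, whereas those of miR-29b-3p, miR-101-3p, miR-301a-3p and miR-301b-3p lie below 0 before adjustment.

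The miRNAs whose profile over the 6 libraries was nearest to that of the family sum were sought among the 358 other miRNAs averaging at least 10 CPM. Likeness was the root mean square difference of log2(CPM + 1) after centring, which had a median of 0.37 over the candidates. The nearest were let-7g-5p (0.05), miR-24-3p (0.05), miR-628-5p (0.07), miR-146a-5p (0.08) and let-7d-5p (0.09). Their means were close between groups, such as 3483 ± 322 CPM in LINC00673, against 3674 ± 328 CPM in NC for miR-24-3p and 54.7 ± 1.94 CPM, against 56.5 ± 6.86 CPM in the same order for miR-628-5p (SD, n = 3 each). A profile that varies little is near to any other of that kind, so this measure says that they were flat together and no more.

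**Figure D5:**
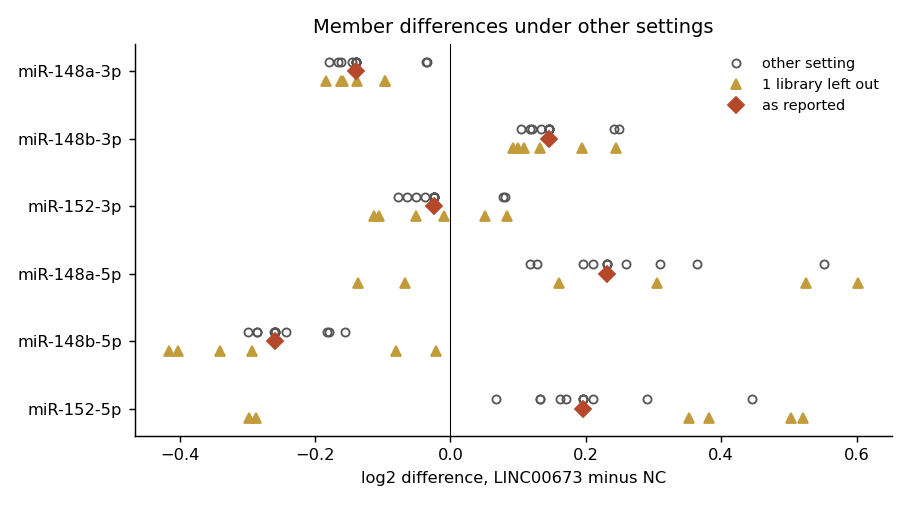
Log2 difference, LINC00673 minus NC, of each member as reported (diamonds), with 1 library left out (triangles) and under the other settings tried (circles). The 3p arms stay within -0.18 and 0.25 under the settings plotted. Values of miR-152-3p, and of the rare 5p arms of MIR148A and MIR152, fall on both sides of 0.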

How the data were processed

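The authors deposited 1 table of CPM per mature miRNA and library. Reads were processed against hg38, per the submitters' processing notes. RNA was extracted with TRIzol and made into libraries with a NEBNext small RNA kit, per the labels' protocols. Not given in the sources used here are the aligner, the counter and the rule for multiply matching reads. In each library 100% of values above 0 were whole multiples of 1 read (within 0.1 read), so reads were recovered from denominators of 295567 to 762663 reads. Intervals and the floor of 3 reads cover counting error only, since the labels name no molecular identifiers. No 2 replicates agreed within sampling noise. The chi-square per degree of freedom was 2.43 for LINC00673 replicates 2 and 3, by far the closest pair, and 9.8 to 43.1 for the others.

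Levels were tested two-sided with limma 3.58.1 (R 4.3.3), with its mean-variance trend, on log2 of CPM + 1, with Benjamini-Hochberg adjustment over 810 miRNAs, those averaging at least 1 CPM, and a threshold of 0.05. A larger pseudocount shrank the log2 differences of rare arms. At 0.5, 1 and 5 CPM they were 0.26, 0.231 and 0.128 for miR-148a-5p, and 0.211, 0.196 and 0.133 for miR-152-5p. Beside edgeR and DESeq2, the limma value was smaller for miR-148a-5p and larger for miR-152-5p. Summed levels, shares and ratios were compared by exact permutation of the 6 libraries (Python 3.11.15). On the recovered reads, edgeR 4.0.16 (quasi-likelihood, TMM) and DESeq2 1.42.0 were alternatives, and all 3 tools were tested on simulated data. Named were all members, the miRNAs of 2 lists past any tool or among the 3 most abundant, and the 5 nearest in profile. Members and lists were chosen with earlier results of these data known. Scaling, pseudocount, filter, variance prior, replicate block and left-out libraries were varied.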

Additional observations from a re-analysis of the deposited data

How the results depend on the processing

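Over 20 results and 225 alternative values, 204 kept their direction and their side of the threshold. The other 21 changed sign, all of them differences that passed no test. For sums, shares and ratios the side of the threshold was fixed in advance, as their exact permutation p cannot go below 0.1. Counts of members called, at 0 throughout, had no direction to keep. No member passed under any of 18 alternative fits. With TMM scaling the log2 difference of the family sum was 0.0863 and that of miR-152-3p 0.0802, which was 0.0783 in edgeR. TMM scaling shifted the log2 differences of all miRNAs by a median of 0.09. With 1 library left out, log2 differences ranged from -0.18 to -0.10 for miR-148a-3p, from 0.09 to 0.24 for miR-148b-3p, from -0.113 to 0.0842 for miR-152-3p, from -0.42 to -0.02 for miR-148b-5p, from -0.14 to 0.60 for miR-148a-5p, from -0.30 to 0.52 for miR-152-5p and from -0.0524 to 0.035 for the family sum. The 3p to 5p ratio of MIR152 ranged from -0.61 to 0.38, and the ratio of miR-148a-3p to miR-152-3p from -0.234 to 0.0168. Shares of the family ranged from -0.0041 to 0.0154 percentage points for miR-148a-5p, from -0.135 to 0.0132 for miR-148b-5p, from -1.44 to 0.887 for miR-152-3p and from -0.0203 to 0.0335 for miR-152-5p. The cause was not tested. The ratio of miR-148a-3p to miR-148b-3p ranged from -0.34 to -0.24. Chosen after seeing the data, edgeR and DESeq2 with 1 library left out passed none of the 3p arms. These edgeR fits gave -0.181 to 0.0062 for miR-148a-3p, 0.111 to 0.35 for miR-148b-3p and -0.0754 to 0.139 for miR-152-3p. The DESeq2 fits gave -0.18 to -0.0957, 0.0556 to 0.243 and -0.113 to 0.0654 in the same order. Several of these values lay outside the limma ranges, and miR-148a-3p changed sign in edgeR without NC replicate 3. Over all miRNAs, limma called 2 higher and 0 lower, against 20 and 8 without NC replicate 3, 4 and 7 without the filter, 3 and 5 with a pseudocount of 5 CPM, 2 and 3 without the 10 most abundant in the total, 15 and 7 in edgeR, 5 and 10 in DESeq2, and 0 with a pseudocount of 0.5 CPM, the filter of 10 CPM, no trend in the variance, LINC00673 replicates 2 and 3 averaged, or any other library left out. Deviations of libraries with the same replicate number correlated little (0.029, 0.068 and 0.011), which cannot show whether the libraries are paired. LINC00673 replicates 1 and 2 correlated best with the NC library of the same number, and LINC00673 replicate 3 with NC replicate 1. With a replicate block the family sum differed by -0.02, which equals the unblocked value in a balanced design, and 0 members passed. The filter of 10 CPM left no value for miR-148a-5p and miR-152-5p. Depth limited these 2 arms, with 1 to 7 reads a library.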
